A study of Mus musculus with 12 samples.

Results

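The genes described here are 23 genes of DNA replication and S phase and 24 genes of mitosis. They were chosen by gene symbol, and all 47 were present among the 27179 genes of the count table. All 47 also passed a filter on low counts that left 14903 genes for testing. RNA was sequenced from epithelial cells of the mammary glands of female mice, in 12 libraries. The 4 groups, each of 3 biological replicates, were basal cells labelled Foxp1 knockout, basal controls, luminal cells labelled Foxp1 knockout and luminal controls. Both knockout-labelled groups came from MMTV-cre/Foxp1(fl/fl) mice, and both control groups from Foxp1(fl/fl) mice, so the controls carry the floxed alleles too. MMTV-cre makes the recombinase from a mouse mammary tumour virus promoter, which is active in mammary epithelium and in some other secretory epithelia. The sources used here give no age or reproductive stage of the mice, no markers used to isolate the cells and no number of mice behind each library.

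A dividing cell first copies its DNA in S phase and then separates the copies in mitosis, and each step has its own set of genes. S phase genes are switched on by E2F transcription factors once cyclin-dependent kinases of G1 have inactivated the retinoblastoma protein. Mitosis genes are switched on later, through CHR and CCAAT elements bound by B-Myb complexes and by NF-Y. In the adult mammary gland both compartments divide in response to ovarian hormones, and the levels of these mRNAs are commonly read as a measure of cells in cycle. In bulk RNA, fewer cycling cells and less RNA per cell cannot be told apart.

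The targeted gene did not check the labels. Foxp1, a forkhead transcription factor, was at 212, 193 and 284 CPM (library-scaled counts with TMM factors) in basal knockout-labelled cells, against 221, 213 and 159.7 CPM in basal controls. Its log2 fold change was 0.22 (SE 0.19, adjusted p = 0.926, edgeR quasi-likelihood test with Benjamini-Hochberg adjustment). In luminal cells Foxp1 was at 161, 149.8 and 155 CPM in knockout-labelled libraries, against 82.3, 62.0 and 78.2 CPM in controls. That log2 fold change was 1.07 (SE 0.19, edgeR adjusted p = 0.0161), in the direction opposite to the label. The count covers the whole gene, so reads outside the deleted part enter it, and the libraries are called knockout-labelled throughout. Total counts were 9769361 to 11133908 in 11 libraries and 15449513 in luminal knockout-labelled replicate 3. The cell type labels held against marker genes. All 15 basal markers were called lower in luminal than in basal controls, beside 2507 of all 14903 tested genes. Of 10 pan-luminal markers 9 were called higher, beside 2435 of all tested genes.

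Mitosis genes varied together from library to library, and most of that variation lay inside groups. Their summed level was 362, 419.6 and 122.5 CPM in basal knockout-labelled replicates 1, 2 and 3, against 318, 231 and 828 CPM in basal controls. Basal control replicate 3 was the highest of the 12 libraries, and basal knockout-labelled replicate 3 was the second lowest. In luminal cells the sums were 405, 392 and 143 CPM in knockout-labelled libraries, against 348, 677 and 104 CPM in controls. Here replicate 2 of the controls was high and replicate 3 of both groups was low, so the groups overlapped in both cell types.

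In each group the library at 1 extreme was the same for all 24 mitosis genes. All 24 were lowest in replicate 3 of the basal knockout-labelled group, where 39.0% of all tested genes were lowest. All 24 were highest in replicate 3 of the basal controls, where 39.6% of all tested genes were highest. In luminal cells all 24 were lowest in replicate 3 of the knockout-labelled group, beside 35.2% of all tested genes. In the controls all 24 were highest in replicate 2, beside 38.6%, and lowest in replicate 3, beside 39.0%. The genes share these libraries, so the counts describe 5 libraries and are not separate observations. The median ratio of the highest to the lowest library over the 24 genes was 4.32 in basal knockout-labelled cells, 3.91 in basal controls, 3.22 in luminal knockout-labelled cells and 5.56 in luminal controls.

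Basal control replicate 3 also stood apart from the other basal controls in cell type markers. Acta2, smooth muscle actin of contractile basal cells, was at 1242 CPM in it, against 4845 and 5180 CPM in control replicates 1 and 2. Myh11, a smooth muscle myosin, was at 867 CPM, against 2690 and 2915 CPM. The basal keratins differed in direction. Krt5 was at 7270 CPM, against 2387 and 2574 CPM, and Krt14 at 7295 CPM, against 4811 and 4101 CPM. Krt17 was lower, at 1987 CPM, against 2950 and 2446 CPM. In basal control replicate 3 the 12 hormone-sensing luminal markers summed to 415.5 CPM with Tnfsf11 at 0, against 171 and 89.7 CPM. The knockout-labelled basal libraries lay at 259 to 307 CPM. Esr1, the estrogen receptor, was at 71.6 CPM in that library, against 10.6 and 4.56 CPM. The sum of all 15 basal markers in basal control replicate 3 was 22020 CPM, against 24290 and 24500 CPM. Among knockout-labelled basal libraries, replicate 3, with the lowest mitosis sum of its group, was also lowest for Acta2 and Myh11. Acta2 was at 1702 CPM in it, against 3272 and 3598 CPM, and Myh11 at 1645 CPM, against 2112 and 2418 CPM. The part of these markers in the mitosis values was not tested.

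**Figure D1:**
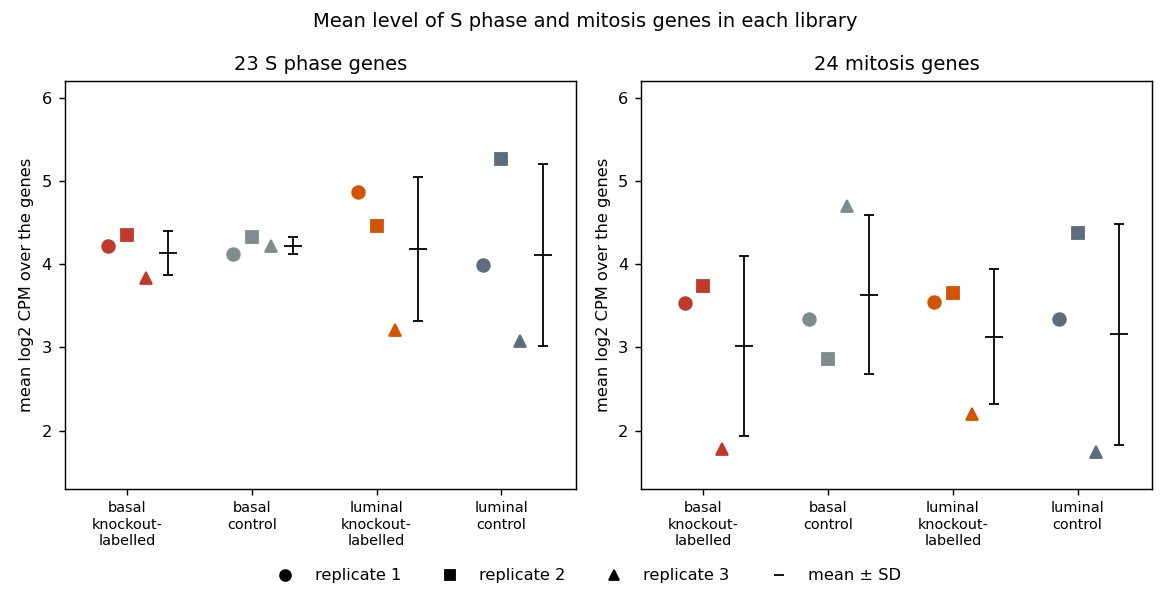
Mean log2 CPM over the 23 S phase genes (left) and the 24 mitosis genes (right) in each library, with marker shapes for replicates 1 to 3 and a bar for the mean ± SD of each group of 3. The mitosis genes spread widely in all 4 groups, while the S phase genes lie close together in both basal groups and spread in both luminal groups.

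S phase genes followed the mitosis genes in luminal cells and in part in basal cells. Their summed level was 731, 691 and 669 CPM in basal knockout-labelled cells, against 653.5, 742 and 653 CPM in basal controls. The 6 basal libraries lay within a narrow range, and basal control replicate 3, the highest for mitosis genes, was not high here. Gene by gene, knockout-labelled replicate 3 was the lowest of its group for 16 of 23 S phase genes, beside 39.0% of all tested genes. Replicate 2 was the highest for 15 of 23, beside 41.1%. Both were so for most mitosis genes. Basal control replicate 3 was the highest for 10 of 23 and the lowest for 10 of 23, or 43.5% each. These lay near the 39.6% and 45.4% of all tested genes and show nothing particular to S phase genes. In luminal cells the sums were 916, 738 and 344 CPM in knockout-labelled libraries, against 549.5, 1202 and 320.1 CPM in controls. Replicate 2 was the highest luminal control for 23 of the 23 genes, beside 38.6% of all tested genes. Replicate 3 was the lowest for 22 of 23 in the controls, beside 39.0%, and for 22 of 23 in the knockout-labelled group, beside 35.2%.

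The most abundant S phase mRNAs carried much of the basal sum. Pcna, the sliding clamp of DNA polymerases, had the highest level per transcript length of the 47 genes, at 307 ± 89.1 TPM in basal knockout-labelled cells, 287.5 ± 71.4 TPM in basal controls, 120.2 ± 13.6 TPM in luminal knockout-labelled cells and 138 ± 51.4 TPM in luminal controls (SD, n = 3). Slbp, which binds the stem-loop of histone mRNAs, was at 163 ± 15.8, 146.5 ± 44.6, 66.0 ± 11.4 and 88.4 ± 44.2 TPM in the same groups, second to Pcna except in luminal knockout-labelled cells, where Mcm6 was at 85.2 ± 43.7 TPM. Without Pcna and Slbp, a choice made after their values were seen, the other 21 S phase genes summed to 428, 492 and 328.5 CPM in basal knockout-labelled cells, against 391, 448 and 490.0 CPM in basal controls. Their luminal sums were 775, 629.7 and 237 CPM in knockout-labelled libraries, against 407, 1009 and 218 CPM in controls. The lowest basal library was then knockout-labelled replicate 3, as for the mitosis genes, and the luminal order did not change.

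**Figure D2:**
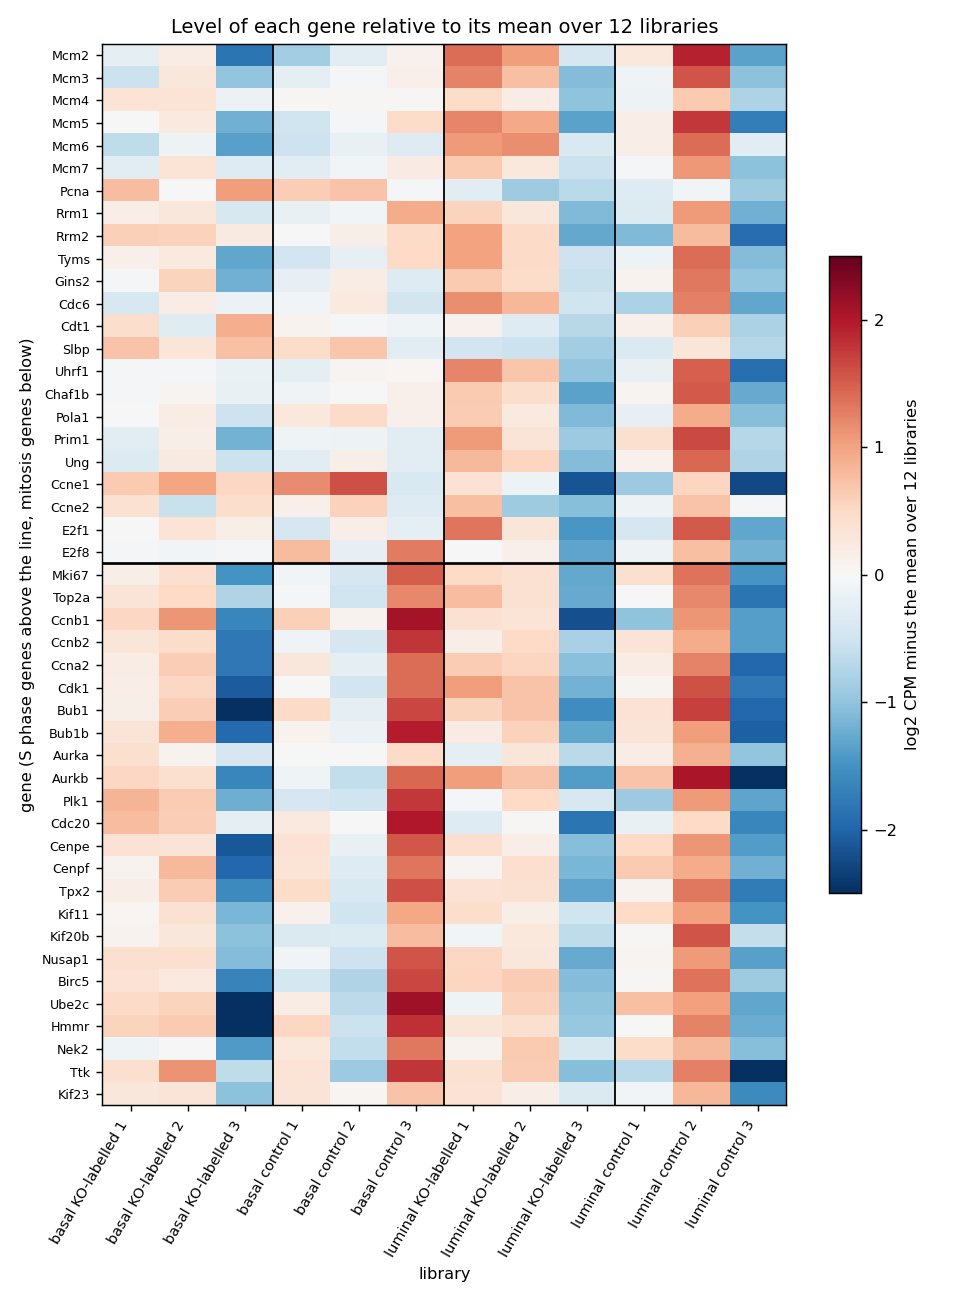
Log2 CPM of each of the 47 genes (down the page, S phase genes above the line and mitosis genes below it) in each of the 12 libraries (across), minus the mean of that gene over the 12 libraries. Columns, not groups, carry most of the colour: basal knockout-labelled replicate 3 and both luminal replicates 3 are blue over the mitosis genes, and basal control replicate 3 and luminal control replicate 2 are red.

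Spread among replicates was larger for these genes than for the typical gene. The median SD of log2 CPM over the 24 mitosis genes was 1.11 in basal knockout-labelled cells, 1.0 in basal controls, 0.88 in luminal knockout-labelled cells and 1.25 in luminal controls. Over all 14903 tested genes it was 0.33, 0.34, 0.26 and 0.32 in the same groups. For the 23 S phase genes it was 0.36 and 0.26 in the basal knockout-labelled and control groups, close to all genes, and 0.90 and 1.15 in the luminal knockout-labelled and control groups. The widest range of a single gene was that of Aurkb, the kinase that corrects attachments of chromosomes to the spindle, whose highest luminal control was 35.5 times its lowest. The lowest held 5 reads of Aurkb and the highest 193, so this ratio rests on a low count. The narrowest range was that of Mcm4, a subunit of the replicative helicase, at 45.8, 45.8 and 46.0 CPM in basal controls.

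**Figure D3:**
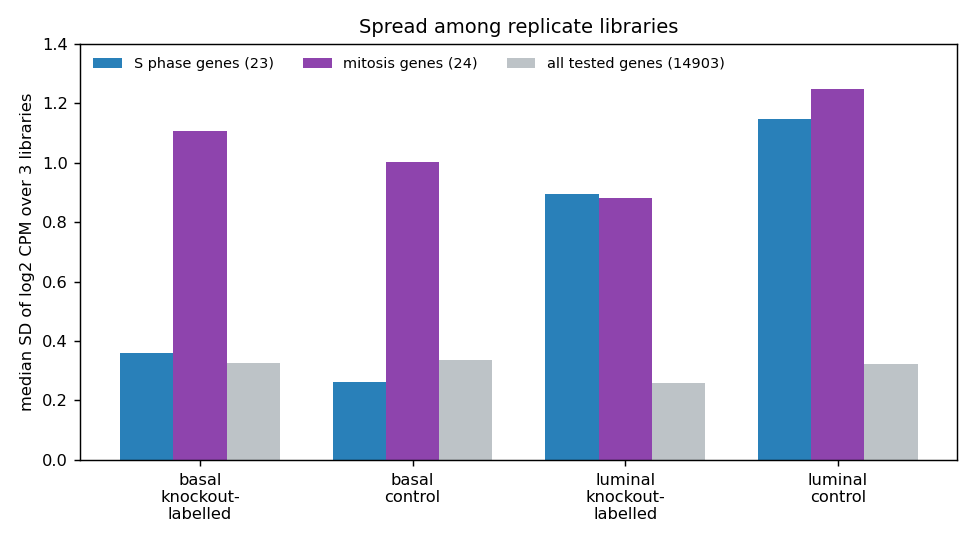
Median SD of log2 CPM over the 3 libraries of each group, for the 23 S phase genes, the 24 mitosis genes and all 14903 tested genes. The mitosis bars lie between 0.88 and 1.25 in all 4 groups, and the S phase bars are at that height in the luminal groups alone.

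The S phase and mitosis lists differed in promoter letters. Both hold known cell cycle genes, for which such elements are described above, and the part of these letters in the library levels was not tested. RefSeq promoters (GRCm38.p6, 250 bases before to 50 bases after the start) matched 20 of the 23 S phase genes, with 22 promoters, and 21 of the 24 mitosis genes, with 21 promoters. CHR letters (TTTGAA or TTCGAA) stood in 76.2% of the mitosis promoters, in 13.6% of the S phase promoters and in 19.2% of all 32851 promoters of this length. CCAAT letters stood in 85.7%, 68.2% and 37.4% of the same 3 sets, and both motifs together in 71.4%, 13.6% and 7.52%. E2F letters (TTTCCCGC, TTTCGCGC, TTTGCCGC or TTTGGCGC) stood in 36.4% of the S phase promoters, 4.76% of the mitosis promoters and 2.26% of all promoters. Both strands were searched, and a match of letters is a description and not a bound site.

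The 120 bases before the start are shown for the 3 S phase genes that passed a test between cell types, and for 4 mitosis genes with both motifs. Each is written 5′ to 3′ on the strand of the gene, from RefSeq GRCm38.p6, with matched letters of either strand in capitals. Mcm6 holds E2F letters (TTTGGCGC, and an overlapping GCGCGAAA on the other strand) and CCAAT read as ATTGG. Pcna and Slbp hold CCAAT letters and none of the 4 E2F words.
Mcm6, chr1:128359706-128359825, - strand: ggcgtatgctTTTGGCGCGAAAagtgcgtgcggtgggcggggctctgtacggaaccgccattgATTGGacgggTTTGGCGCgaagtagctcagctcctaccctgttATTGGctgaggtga
Pcna, chr2:132253181-132253300, - strand: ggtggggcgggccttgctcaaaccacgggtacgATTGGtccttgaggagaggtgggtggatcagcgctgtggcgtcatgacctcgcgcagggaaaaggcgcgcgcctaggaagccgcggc
Slbp, chr5:33652575-33652694, - strand: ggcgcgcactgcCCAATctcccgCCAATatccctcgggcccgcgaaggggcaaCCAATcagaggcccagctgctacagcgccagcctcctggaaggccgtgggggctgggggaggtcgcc
In all 4 mitosis promoters a CHR match, read as TTCAAA where it lies on the other strand, stands near the start with CCAAT letters upstream of it. Top2a encodes the topoisomerase that untangles DNA before division, Cdk1 the kinase that drives entry into mitosis, Cdc20 the activator of the anaphase-promoting complex, and Ube2c the ubiquitin-conjugating enzyme of that complex.
Top2a, chr11:99024190-99024309, - strand: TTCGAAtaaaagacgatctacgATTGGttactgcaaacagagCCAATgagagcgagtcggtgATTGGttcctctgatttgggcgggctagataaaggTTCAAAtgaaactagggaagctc
Cdk1, chr10:69352913-69353032, - strand: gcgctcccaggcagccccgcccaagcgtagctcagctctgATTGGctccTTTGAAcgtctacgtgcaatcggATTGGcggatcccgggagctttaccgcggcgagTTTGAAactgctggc
Cdc20, chr4:118437344-118437463, - strand: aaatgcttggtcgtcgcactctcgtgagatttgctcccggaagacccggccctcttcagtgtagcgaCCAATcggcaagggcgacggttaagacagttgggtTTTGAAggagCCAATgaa
Ube2c, chr2:164769809-164769928, + strand: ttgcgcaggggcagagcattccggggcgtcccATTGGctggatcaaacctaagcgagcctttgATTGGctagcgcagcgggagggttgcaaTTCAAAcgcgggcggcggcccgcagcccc

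The first comparison asked whether cell cycle mRNAs differed between knockout-labelled and control basal cells. No S phase or mitosis gene passed the test in basal cells. The edgeR quasi-likelihood test called 0 of 47 genes at an adjusted p under 0.05, beside 0.671% of all tested genes. In that test 0 of 47 had an unadjusted p under 0.05, beside 1324 of all 14903 tested genes. DESeq2 also called 0 of 47. The lowest adjusted p was 0.81, for Nek2, a centrosome kinase. In 0 of 47 genes were the 3 knockout-labelled libraries all above or all below the 3 controls, beside 8.16% of all tested genes with no overlap in the higher direction and 4.21% in the lower.

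Mitosis genes lay below 0 in basal cells, within wide errors. The log2 fold change was below 0 for 24 of 24 mitosis genes, beside 51.2% of all tested genes, with a median of -0.65 against -0.01 over all genes. This direction rested on basal control replicate 3: without it the median over the 24 genes was 0.13. Mki67, the proliferation antigen Ki-67, was at 64.2, 78.7 and 20.8 CPM in knockout-labelled basal cells, against 55.6, 44.0 and 167 CPM in controls. Both extremes were replicates 3, with the other 4 libraries between them. Its log2 fold change was -0.70 (SE 0.75, edgeR adjusted p = 0.961), with a 95% interval of -2.34 to 0.93.

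The genes with the largest basal fold changes showed the same library pattern. Ube2c was at 12.2, 12.7 and 1.41 CPM in knockout-labelled basal cells, against 9.96, 5.54 and 37.6 CPM in controls, a log2 fold change of -1.01 (SE 0.86). Its highest value was control replicate 3 and its lowest knockout-labelled replicate 3. Knockout-labelled replicates 1 and 2 both lay above control replicates 1 and 2, opposite to the direction of the fold change. Bub1, a kinase of the spindle checkpoint, was at 4.76, 6.63 and 0.76 CPM against 6.02, 3.66 and 13.8 CPM in controls, a log2 fold change of -0.94 (SE 0.91). For Nek2 the values were 7.80, 8.42 and 3.15 CPM against 10.2, 5.54 and 21.1 CPM in controls, a log2 fold change of -0.92 (SE 0.58). Cenpe, the kinesin that carries chromosomes to the spindle equator, had a log2 fold change of -0.87 (SE 0.72). The 95% intervals of these 4 genes all spanned 0, and the edgeR adjusted p of the 4 lay between 0.81 and 0.949.

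Cyclins and other core mitosis genes gave smaller or similar values. Cdk1 was at 12.4, 15.9 and 2.61 CPM in knockout-labelled basal cells, against 10.99, 8.04 and 28.9 CPM in controls, with a log2 fold change of -0.63 (SE 0.86). Ccnb1, the mitotic cyclin B1 that partners Cdk1, was at 4.86, 7.26 and 1.09 CPM against 5.08, 3.57 and 14.3 CPM in controls, with a log2 fold change of -0.79 (SE 0.86). Top2a was at 58.9, 66.5 and 28.0 CPM against 45.7, 33.4 and 108 CPM in controls, with a log2 fold change of -0.29 (SE 0.71). In each of the 3, knockout-labelled replicates 1 and 2 lay above control replicates 1 and 2 or between them, and replicate 3 was the lowest of one group and the highest of the other. Aurka, a kinase of the spindle poles, had the smallest fold change of the 24, at -0.10 (SE 0.43).

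S phase genes were scattered around 0 in basal cells. The log2 fold change was below 0 for 16 of 23 and above 0 for 7, with a median of -0.06. E2f8, a repressor of the E2F family, gave the largest, at 6.48, 6.36 and 6.52 CPM in knockout-labelled libraries against 11.5, 5.81 and 16.3 CPM in controls (log2 fold change -0.80, SE 0.51, edgeR adjusted p = 0.831). The knockout-labelled values were nearly equal and lay inside the range of the controls. Cdt1, which loads the helicase at replication origins, was at 36.7, 22.0 and 50.4 CPM against 28.6, 26.0 and 25.2 CPM in controls (log2 fold change 0.45, SE 0.36). Here the controls were nearly equal and lay inside the knockout-labelled range.

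The remaining S phase genes named by rule had folds smaller than their errors in basal cells. Pola1, the catalytic subunit of DNA polymerase alpha, had a log2 fold change of -0.38 (SE 0.48), and E2f1, the activator of S phase genes, one of 0.30 (SE 0.71). Ccne1, cyclin E1, gave -0.29 (SE 0.70), and Rrm2, a subunit of ribonucleotide reductase, gave 0.25 (SE 0.62). The helicase subunits Mcm2 and Mcm5 gave -0.11 (SE 0.73) and -0.23 (SE 0.77), and Pcna gave 0.21 (SE 0.31). The 95% interval of the log2 fold change reached below -1 for 43 of 47 genes and above 1 for 25 of 47, and changes of that size are not excluded for those genes. For Pcna the interval was -0.46 to 0.88, within both bounds.

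**Figure D4:**
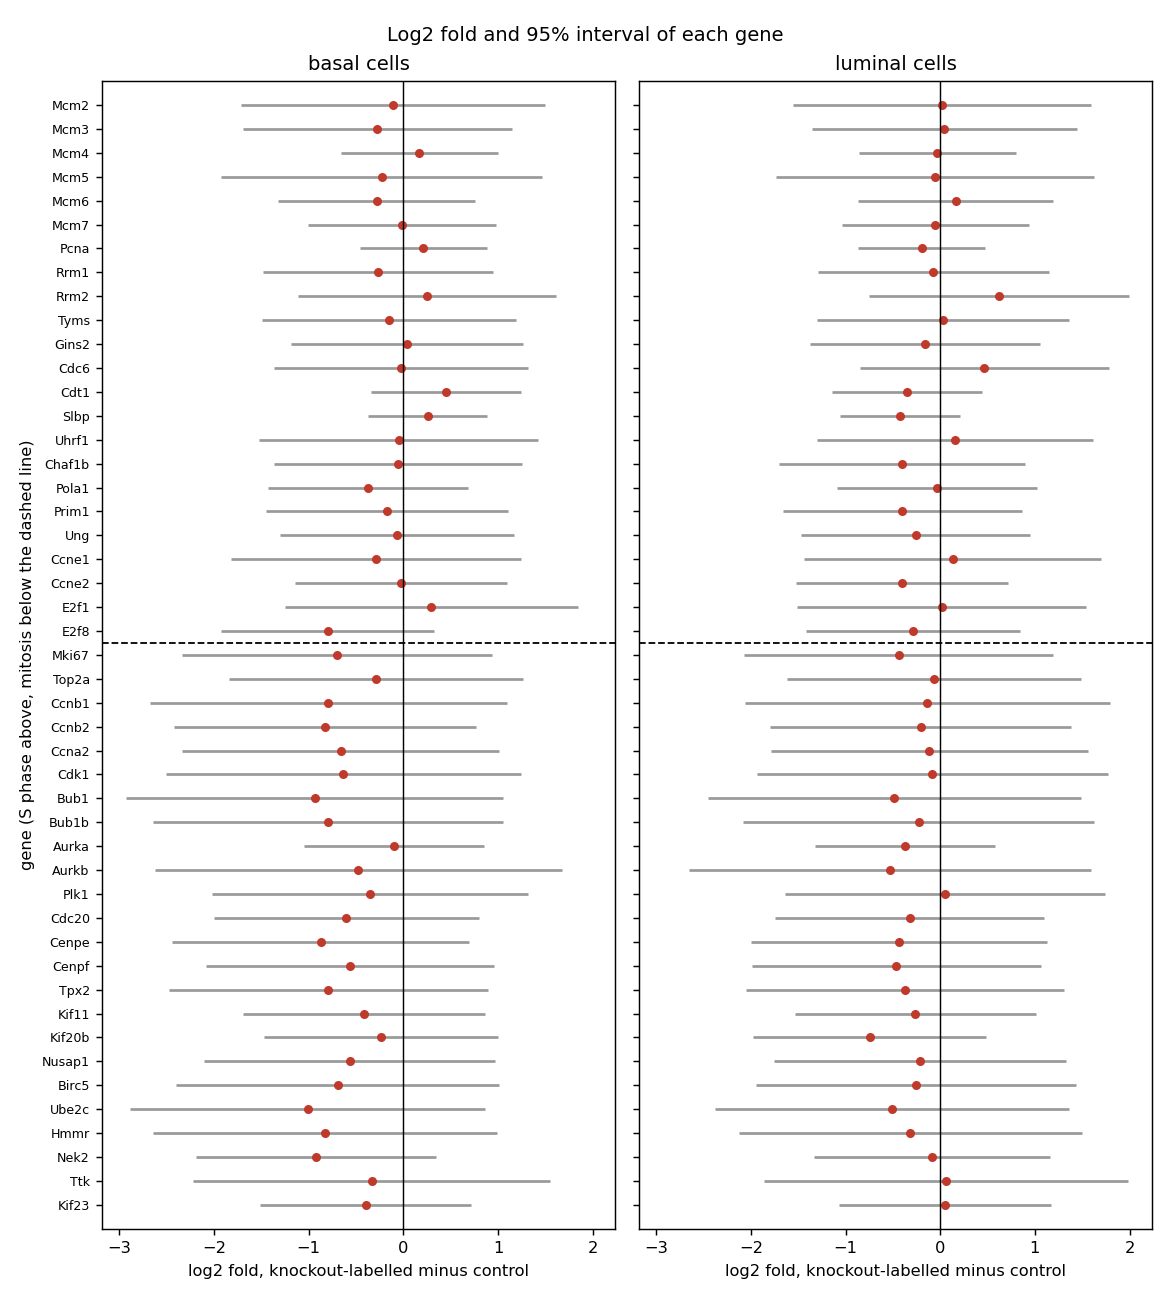
Log2 fold change, knockout-labelled minus control, of each of the 47 genes with its 95% interval from the edgeR test, in basal cells (left) and luminal cells (right). The 24 mitosis points of basal cells lie below 0, from -1.01 to -0.10, and all intervals in both panels span 0.

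In luminal cells too, none of the S phase or mitosis genes passed the test between knockout-labelled and control cells. The edgeR test called 0 of 47, beside 3.03% of all tested genes, and DESeq2 called 0 of 47. In edgeR 0 of 47 had an unadjusted p under 0.05, beside 2567 of all 14903 tested genes. The lowest adjusted p was 0.507, for Slbp. The luminal groups met the criterion for pairing by replicate number. With that number as 1 block shared by all 12 libraries, 1097 in place of 451 genes were called and still 0 of the 47. The basal groups share the block and did not meet the criterion, so this fit is not a paired test of luminal libraries alone. No member had groups that did not overlap (0 of 47), beside 13.1% of all tested genes higher and 12.4% lower.

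Mitosis genes in luminal cells had fold changes mostly below 0, with a median nearer 0 than in basal cells. The log2 fold change was below 0 for 21 of 24, beside 52.5% of all tested genes, with a median of -0.26 against -0.03 over all genes. Without luminal control replicate 2 the median was 0.50, and without knockout-labelled replicate 3 it was 0.07. Mki67 was at 82.9, 76.4 and 24.2 CPM in knockout-labelled luminal cells, against 76.8, 150.5 and 20.9 CPM in controls (log2 fold change -0.44, SE 0.74). The low replicates 3 were alike in both groups, and the controls differed from each other by more than the groups did.

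Kif20b, a kinesin of cytokinesis, gave the largest luminal fold change of the mitosis genes. It was at 5.09, 6.35 and 3.40 CPM in knockout-labelled libraries, against 5.43, 15.8 and 3.52 CPM in controls (log2 fold change -0.74, SE 0.56, edgeR adjusted p = 0.552). Only control replicate 2 stood above the knockout-labelled range. Aurkb had a log2 fold change of -0.53 (SE 0.97), Ube2c one of -0.51 (SE 0.86) and Bub1 one of -0.48 (SE 0.90). Top2a, Cdk1 and Ccnb1 were closer to 0, at -0.07 (SE 0.71), -0.08 (SE 0.85) and -0.14 (SE 0.88). The kinase gene Plk1, the checkpoint kinase gene Ttk and the kinesin gene Kif23 were the 3 above 0, at 0.05, 0.06 and 0.05.

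S phase genes of luminal cells had a median log2 fold change of -0.05, with 14 of 23 below 0 and 9 above. Without luminal control replicate 2 that median was 0.65, and without knockout-labelled replicate 1 or control replicate 3 it was -0.40. Rrm2 was at 36.0, 25.1 and 7.41 CPM in knockout-labelled libraries, against 8.42, 31.1 and 4.83 CPM in controls (log2 fold change 0.62, SE 0.63). The 2 high knockout-labelled libraries lay on either side of the single high control. Cdc6, which helps to load the helicase, was at 10.5, 8.32 and 3.34 CPM against 2.71, 11.3 and 1.91 CPM in controls (log2 fold change 0.47, SE 0.60). Slbp was at 54.0, 51.6 and 41.2 CPM against 58.3, 92.6 and 45.5 CPM in controls (log2 fold change -0.42, SE 0.29). Control replicates 1 and 2 lay above all 3 knockout-labelled libraries, and control replicate 3 lay inside their range.

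Other S phase genes differed less between the luminal groups. Chaf1b, a subunit of the chromatin assembly factor that deposits histones behind the fork, had a log2 fold change of -0.41 (SE 0.59). Cdt1 gave -0.35 (SE 0.36), E2f8 gave -0.29 (SE 0.52) and Pcna gave -0.20 (SE 0.31). Mcm5 was at 60.6, 49.8 and 10.2 CPM in knockout-labelled luminal cells, against 29.1, 88.3 and 7.84 CPM in controls, an 11.3-fold range within the controls and a log2 fold change of -0.06 (SE 0.77). Mcm2 and E2f1 gave 0.02 and 0.01, and Ccne1 gave 0.13 (SE 0.72). Across the 47 genes the 95% interval reached below -1 for 42 and above 1 for 35.

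The effect of the knockout label was then compared between luminal and basal cells. For 0 of 47 genes did the edgeR test of the difference pass, beside 0.275% of all tested genes, and DESeq2 called 0. In edgeR 0 of 47 had an unadjusted p under 0.05, beside 1467 of all 14903 tested genes. The median difference, luminal minus basal effect, was 0.43 over the mitosis genes, with 21 of 24 above 0 beside 47.9% of all tested genes, and 0.12 over the S phase genes. Without basal control replicate 3 the mitosis median was -0.44, and without luminal control replicate 2 the S phase median was 1.02. Among S phase genes Cdt1 gave the largest difference (-0.80, SE 0.51, adjusted p = 0.704), followed by Slbp (-0.68, SE 0.41), E2f8 (0.51, SE 0.73) and Cdc6 (0.49, SE 0.86). Among mitosis genes Nek2 gave 0.84 (SE 0.81), Ccnb1 gave 0.66 (SE 1.23), Ccnb2, the second B-type cyclin, gave 0.62 (SE 1.03), and Bub1b, the BubR1 checkpoint kinase, gave 0.56 (SE 1.19).

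Differences between luminal and basal cells were clearest in a few S phase genes with high levels. Among the knockout-labelled libraries edgeR called 3 of 47 genes, or 6.38%, beside 40.6% of all tested genes. DESeq2 called the same 3, and its share of all tested genes is not reported here. All 3 were S phase genes, and of the mitosis genes 0 of 24 passed in edgeR and 0 by DESeq2. An unadjusted edgeR p under 0.05 was reached by 0 of 24, beside 7323 of all 14903 tested genes. Pcna was at 87.2, 56.6 and 66.0 CPM in luminal knockout-labelled cells, against 179, 106 and 216 CPM in basal knockout-labelled cells. The groups did not overlap, and its log2 fold change was -1.26 (SE 0.31, edgeR adjusted p = 0.00759). Mouse Pcna has pseudogene copies, and the sources used here do not say how reads shared with them were counted.

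Slbp followed the same direction. It was at 54.0, 51.6 and 41.2 CPM in luminal knockout-labelled cells, against 124, 93.0 and 125 CPM in basal knockout-labelled cells, again without overlap. Its log2 fold change was -1.22 (SE 0.29, edgeR adjusted p = 0.00641). Pcna and Slbp stayed called in every alternative run for this comparison. Mcm6, a helicase subunit, had the opposite direction, at 138, 147 and 50.5 CPM in luminal knockout-labelled cells, against 42.0, 59.9 and 25.6 CPM in basal knockout-labelled cells. The lowest luminal library lay inside the basal range, and the log2 fold change was 1.39 (SE 0.48, edgeR adjusted p = 0.0381). This call was lost without any of 4 libraries, basal replicate 1 (adjusted p = 0.094), basal replicate 3 (0.134), luminal replicate 1 (0.106) or luminal replicate 2 (0.124).

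Ccne1 was lower in all 3 luminal than in all 3 basal knockout-labelled libraries without passing the test. It was at 14.8, 10.7 and 2.60 CPM in luminal cells, against 18.1, 22.8 and 16.5 CPM in basal cells (log2 fold change -1.04, SE 0.71, edgeR adjusted p = 0.265). Pcna, Slbp and Ccne1 were the 3 of 47 genes whose groups did not overlap in the lower direction, beside 27.1% of all tested genes, and 0 of 47 did so in the higher direction, beside 27.8%. Mcm2 gave a log2 fold change of 1.26 (SE 0.74) without a call. Among mitosis genes the 4 largest were Cdc20 at -0.97 (SE 0.65), Nek2 at 0.56 (SE 0.58), Cdk1 at 0.56 (SE 0.86) and Ccnb1 at -0.51 (SE 0.87). The median log2 fold change was 0.26 over the S phase genes and 0.03 over the mitosis genes, against 0.03 over all genes. Without luminal knockout-labelled replicate 1 the S phase median was -0.15, and without replicate 3 it was 0.59. Scaling by library size alone moved the median of all genes in this comparison by 0.11, and the 3 called genes kept their directions and calls under it.

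Among controls 0 of 47 genes were called by edgeR between luminal and basal cells without the replicate block, beside 33.2% of all tested genes. One gene, Pcna, had an unadjusted p under 0.05, beside 6452 of all 14903 tested genes. It was also the 1 of 47 called by DESeq2, whose share of all tested genes is not reported here. It was at 84.1, 99.9 and 56.5 CPM in luminal controls, against 160.3, 172 and 101 CPM in basal controls, the 1 gene of 47 without overlap, beside 21.2% of all tested genes in the lower direction. No gene (0 of 47) did so in the higher direction, beside 22.9%. Its log2 fold change was -0.85 (SE 0.31, edgeR adjusted p = 0.0537), with a DESeq2 adjusted p of 0.0216. Slbp was at 58.3, 92.6 and 45.5 CPM in luminal controls, against 102, 121 and 62.4 CPM in basal controls, with overlap and a log2 fold change of -0.54 (SE 0.29, edgeR adjusted p = 0.174). Without basal control replicate 3, both Pcna (edgeR adjusted p = 0.0233) and Slbp (0.0484) were called.

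Ccne1 gave the largest luminal fold change among the controls. It was at 6.18, 16.7 and 2.41 CPM in luminal controls, against 26.2, 35.1 and 8.87 CPM in basal controls (log2 fold change -1.47, SE 0.72, edgeR adjusted p = 0.14). The highest luminal library lay above the lowest basal one, which was replicate 3. With the replicate number as a block, Ccne1 was called among knockout-labelled libraries (-1.34, edgeR adjusted p = 0.0364) and among controls (-1.56, 0.0221). It was then the 1 member called among controls. Replicate numbers met the criterion for pairs between cell types in controls but not in knockout-labelled libraries. The share of all tested genes called under the block in these comparisons is not reported here. Without luminal control replicate 2 the calls among controls were Slbp (adjusted p = 0.0414), Ccne1 (0.0369) and Rrm2 (0.044).

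The largest positive luminal fold changes of S phase genes among the controls had large errors, and none passed the test. Mcm2 gave 1.13 (SE 0.73), Mcm6 gave 0.94 (SE 0.48), and Prim1, the primase that starts each new strand, gave 0.92 (SE 0.58). Mcm4, of the same helicase as Mcm2 and Mcm6, gave 0.01 (SE 0.38), and Pola1 gave -0.18 (SE 0.48). Over the 23 S phase genes the median was 0.29 with 16 above 0, beside 52.1% of all tested genes, and without luminal control replicate 2 it was -0.52. For the 24 mitosis genes the median was -0.34 with 19 below 0, beside 47.9% of all tested genes, and without basal control replicate 3 it was 0.42. Cdc20 at -1.25 (SE 0.65), Ccnb1 at -1.17 (SE 0.87), Bub1b at -0.73 (SE 0.84) and Ttk at -0.72 (SE 0.87) had the largest folds of the mitosis genes. Mki67 and Top2a were near 0, at -0.10 (SE 0.74) and -0.16 (SE 0.71).

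**Figure D5:**
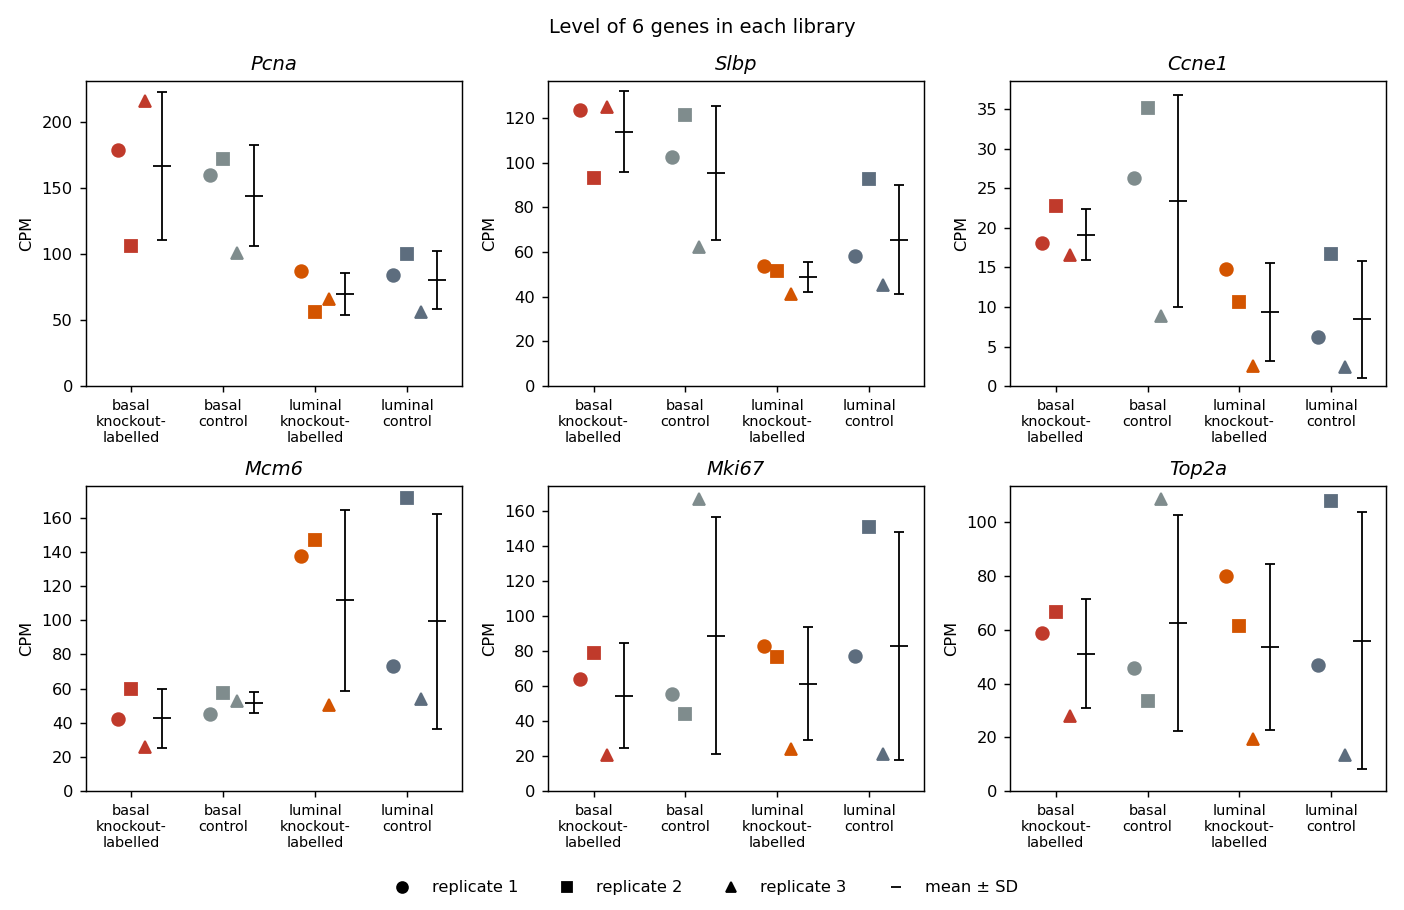
CPM of Pcna, Slbp, Ccne1, Mcm6, Mki67 and Top2a in each library, with marker shapes for replicates 1 to 3 and a bar for the mean ± SD of each group of 3. Pcna and Slbp are lower in luminal than in basal cells among knockout-labelled libraries with no overlap, Mcm6 reaches 138 and 147 CPM in 2 of the 3 luminal knockout-labelled libraries, and Mki67 and Top2a spread more within groups than between them.

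Further replication and mitosis genes, from lists that do not overlap the 47, gave similar counts between knockout-labelled and control cells. Among 38 further replication genes edgeR called 0 between knockout-labelled and control cells in either cell type, with 1 in luminal and 0 in basal cells at an unadjusted p under 0.05. Cdc7, the kinase that fires origins, had the lowest luminal p, with a log2 fold change of -1.08 (SE 0.31, adjusted p = 0.0917). Among 40 further mitosis genes 0 were called in either cell type (0 and 0 at an unadjusted p under 0.05). Their median log2 fold change was -0.29 in luminal and -0.43 in basal cells. Of all 14903 tested genes 3.03% were called in luminal and 0.671% in basal cells. An unadjusted p under 0.05 was reached by 2567 of all tested genes in luminal and 1324 in basal cells. Of the named further genes, Cks1b, a subunit of cyclin-dependent kinases, had a log2 fold change of -0.63 (SE 0.29) in luminal cells, and Plk4, which starts centriole duplication, one of -0.66 (SE 0.32) in basal cells. Histone genes were counted too. Of 69, 15 passed the filter, which a gene can pass on 1 group alone. Between luminal and basal cells 11 of the 15 were called higher in luminal controls, beside 2435 of all 14903 tested genes. In luminal knockout-labelled libraries 12 of the 15 were called higher, beside 2860. A gene high in luminal cells can pass the filter through them alone, so these counts do not compare histone genes with all genes. Between knockout-labelled and control cells 1 was called lower in luminal and 0 in basal cells. Their part in the S phase values was not tested.

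Some genes that act before S phase were called between cell types, at counts that show nothing particular to them beside all tested genes. Of 16 G1 cyclins, cyclin-dependent kinases and E2F factors, 1 was called higher and 2 lower in luminal than in basal knockout-labelled libraries, beside 40.6% of all tested genes called in either direction. In luminal controls 2 were called higher and 2 lower than in basal controls, beside 33.2% of all tested genes. Ccnd2, cyclin D2, was lower in luminal controls (-5.67, SE 0.57, edgeR adjusted p = 2.56e-05), and Ccnd1, cyclin D1, was higher (2.14, SE 0.45, adjusted p = 0.0037). E2f2, another activator E2F, was higher too (2.36, SE 0.60, adjusted p = 0.0106). Among knockout-labelled libraries Ccnd2 was lower (-4.34), Ccnd1 higher (2.91) and Myc, a growth regulator, lower (-1.40) in luminal cells. Between knockout-labelled and control cells 0 of the 16 were called in luminal or basal cells. An unadjusted p under 0.05 was reached by 4 in luminal and 2 in basal cells, beside 2567 and 1324 of all 14903 tested genes.

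Inhibitors of cyclin-dependent kinases and Rb family genes, 13 in all, had 0 called higher and 3 lower in luminal than in basal knockout-labelled libraries, beside 40.6% of all tested genes. In luminal controls 3 were called higher and 2 lower than in basal controls, beside 33.2% of all tested genes. Rb1, the retinoblastoma protein, was higher in luminal controls (1.85, SE 0.29, edgeR adjusted p = 0.000513). The inhibitors Cdkn1a, which encodes p21, and Cdkn1c, which encodes p57, were lower (-1.65 and -1.43). Among knockout-labelled libraries Cdkn1c (-2.65), Cdkn1a (-1.28) and Cdkn2d (-1.09) were called lower in luminal cells. Of the further mitosis genes Ckap2, a spindle protein, was called lower in luminal cells in both sets (-1.14 in knockout-labelled libraries and -1.28 in controls). Anln (1.55) and Hjurp (0.81), which act in cytokinesis and in loading the centromeric histone, were called higher in luminal knockout-labelled libraries. Of the further replication genes Cdc7 was called higher (1.09) and Pold2, a subunit of DNA polymerase delta, lower (-1.33) in luminal controls. In all, 2 of 40 further mitosis genes were called higher and 1 lower among knockout-labelled libraries, and 0 and 1 among controls. Of 38 further replication genes 0 were called among knockout-labelled libraries, and 1 higher and 1 lower among controls. The same shares of all tested genes, 40.6% and 33.2%, stand beside these.

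Levels of other gene groups differed between the same libraries. A list of 16 immediate early and heat shock genes, which rise when tissue is dissociated, summed to 26120, 28660 and 23100 CPM in basal knockout-labelled cells, against 25050, 26340 and 9541 CPM in basal controls. The lowest was basal control replicate 3, the library with the highest mitosis sum. In luminal cells that list summed to 16280, 18330 and 13510 CPM in knockout-labelled libraries, against 24750, 33740 and 13770 CPM in controls, lowest in both replicates 3. The part of this list in the cell cycle values was not tested.

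Markers of other cells were present too. The 12 fibroblast markers summed to 2058 to 3404 CPM in basal knockout-labelled cells, against 513 to 706 CPM in basal controls, with 12 of 12 higher and not overlapping, beside 8.16% of all tested genes, and 2 called by edgeR, beside 0.671%. None was at 0 in a basal library. In luminal cells the fibroblast sums were 136 to 409.7 CPM in knockout-labelled libraries, against 83.9 to 477 CPM in controls. Salivary gland transcripts summed to 21690 to 90240 CPM in luminal knockout-labelled cells, against 11430 to 123600 CPM in luminal controls, and to 195 to 4970 CPM in basal knockout-labelled cells, against 1017 to 4211 CPM in basal controls. Macrophage markers stayed between 16.0 and 85.3 CPM in all 12 libraries, with Adgre1 at 0 in 7 of them, and T and B cell markers between 1.94 and 14.0 CPM, with Cd8a or Ms4a1 at 0 in each. The part of these cells in the S phase and mitosis values was not tested.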

How the data were processed

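Per the labels' protocols, total RNA (RNeasy) went into TruSeq RNA v2 libraries sequenced on an Illumina HiSeq. The submitters' processing notes name featureCounts, CASAVA 1.8.2 and mm10. The aligner, annotation, counting options and use of strand are not stated there, so reads of overlapping genes may be shared. The deposited table holds the authors' whole-number counts per gene, not normalized, with gene lengths, and 859 of its 27179 genes have no symbol. The 12 single-library tables held the same counts (0 values differed).

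Counts were tested with edgeR 4.0.16 (R 4.3.3): TMM factors, the default expression filter by group, a model of 4 group means over all 12 libraries with 8 residual degrees of freedom, and a robust quasi-likelihood F test. P-values were adjusted by Benjamini-Hochberg over all 14903 tested genes and genes under 0.05 are called. The filter kept 99.8% or more of each library, and the common biological coefficient of variation was 32.6%. SE is the absolute log2 fold change over the root of F. CPM uses TMM factors. TPM was computed from the counts and the deposited lengths. Log2 CPM uses a prior count of 2. Scripts were tested on simulated data. Alternatives were DESeq2 1.42.0, other scalings, no filter, fits of only the groups compared, a replicate block shared by all 12 libraries and leaving out each library. No p was computed for a sum or median over the members, and counts and medians stand beside those of all genes.

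The members and all lists were chosen with earlier results of these data known. Members with values are those called, the 4 S phase and 4 mitosis genes with the largest fold change in each comparison, and 12 fixed genes. From the other lists up to 3 called genes, or failing that the 2 lowest in p, are named. Fold changes, SE and adjusted p are from the model without pairing unless the replicate block is named. Replicate numbers met the criterion for pairs where all 3 correlations of same-numbered deviations from group means were above 0.1. They were 0.356, 0.301 and 0.535 for the luminal groups and 0.308, 0.425 and 0.473 between cell types in controls. They were -0.0867, 0.358 and 0.13 for the basal groups and 0.0868, 0.416 and 0.42 between cell types in knockout-labelled libraries, so these did not meet it. The libraries are biological replicates per the series design text, and replicate pairs differed by more than sampling noise (chi-square per degree of freedom 12.2 to 142).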

Additional observations from a re-analysis of the deposited data

How the results depend on the processing

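Counts of all genes called depended on the method more than the members did. DESeq2 called 417 genes in basal knockout-labelled cells, 1089 in luminal ones and 356 for the difference between these effects, where edgeR called 100, 451 and 41. Scaling by library size alone gave 59 in basal cells, and fitting only the groups compared gave 151 in basal and 199 in luminal cells. The replicate block gave 236, 1097 and 106 for the same 3 comparisons. Among controls, luminal against basal, 1 S phase gene was called by DESeq2, 1 with RLE size factors (Pcna in both) and 1 with the replicate block (Ccne1), and the block changed no other member call but that of Ccne1 among knockout-labelled libraries.

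Leaving out each library in turn gave 17 to 122 genes called in basal knockout-labelled cells, 127 to 589 in luminal ones, 10 to 86 for the difference of effects, 4765 to 5899 for luminal against basal knockout-labelled libraries and 3533 to 5211 for luminal against basal controls. S phase genes called ranged from 2 to 3 among knockout-labelled libraries and from 0 to 3 among controls. Mitosis genes called were 0 in every setting run. The mitosis median ranged from -1.07 to 0.13 in basal and from -0.68 to 0.50 in luminal knockout-labelled cells, from -0.44 to 1.13 for the difference, from -0.38 to 0.39 among knockout-labelled libraries and from -1.06 to 0.42 among controls. The S phase median ranged from -0.32 to 0.08 and from -0.40 to 0.65 in basal and luminal knockout-labelled cells, from -0.31 to 1.02 for the difference, from -0.15 to 0.59 among knockout-labelled libraries and from -0.52 to 0.62 among controls. With an arm of 2 libraries, the spread was still pooled over all groups. The call of Mcm6 was lost with no expression filter (adjusted p = 0.0546). The cause of these shifts was not tested.

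Depth was not varied. The median SE of the log2 fold change in the basal comparison was 0.75 for mitosis genes and 0.56 for S phase genes, against 0.30 for all genes.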
